A study of Homo sapiens with 3 samples.

Results

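The clusters described here are MATR3 sites that the deposited annotation left without a gene and that lay on the strand opposite the introns of a MATR3-bound gene. A cluster was a member when it was listed as NoAnnotation, lay off the mitochondrial chromosome, and fell between the first and the last intron cluster of a single gene on the opposite strand of the same replicate. It was left out when a cluster in a 3′UTR lay within 10000 nt on its 5′ side on its own strand. The rule took 623, 549 and 521 clusters in replicates 1, 2 and 3, which is 1693 of 50657 unannotated clusters off the mitochondrial chromosome and of 388807 clusters in all. They made up 3.44%, 3.23% and 3.35% of the unannotated clusters, or 3.34% ± 0.10 (SD, n = 3).

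The clusters come from PAR-CLIP with an antibody against MATR3 in untreated wild-type HEK293 cells, an established human line labelled as kidney, in 3 biological replicates that form a single group. There is no control library, so members were set against other clusters of the same replicate. The cell type was not checked by markers, because cluster reads follow binding as well as RNA level. Clusters held 1649124, 1506682 and 1532602 reads in replicates 1, 2 and 3, of which members held 6303, 5357 and 5506.

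MATR3 (matrin 3) is a nuclear RNA-binding protein with tandem RNA recognition motifs and zinc fingers, known for binding pyrimidine-rich stretches of introns and for its part in splicing. In PAR-CLIP, cells take up a photoreactive uridine analogue, and uridines crosslinked to the protein are read as T-to-C changes, so a cluster also tells from which strand the bound RNA was made. RNA opposite a gene can be a natural antisense transcript, an unannotated transcript, or RNA that continues past the end of a neighbouring gene.

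Unions of overlapping members gave 1593 loci, of which 1507 held a member from 1 replicate, 77 from 2 and 9 from all 3. The sequences of these 9 loci are shown first because overlapping members from every replicate join there. Members of a locus can overlap in a chain. The 30 nt shown come from 1 replicate and can lie outside another replicate's member, as for JAM3 and the first PHYKPL line. Each line names the gene on the opposite strand and gives the hg38 position and strand of 30 nt around the deposited peak position of the member with most reads, read 5′ to 3′ on the member's strand, with runs of at least 5 C or T in capitals.
PPM1H, chr12:62759862-62759891 (+): accctgTTTCCaCTTTCCTggggggcaagc
PHYKPL, chr5:178222395-178222424 (+): gccacaggctgggttgcggccacgcaggca
PHYKPL, chr5:178223627-178223656 (+): gaaacacacaggcaaggCTCCCCTggtcgg
PPM1H, chr12:62759623-62759652 (+): tcggggatgcctgccttggTCTTTCaccct
JAM3, chr11:134131130-134131159 (-): taggcttattctgaatctagagatcagcct
PPM1H, chr12:62759728-62759757 (+): TTCCTggggggcaagcaCCTCCCaCTCCTT
ZNF124, chr1:247140030-247140059 (+): ctggCCTCTCTaccaaggttggggaagttt
RABL6, chr9:136842471-136842500 (-): ggcagaagCTTCCaggcagcagcgcggatc
ATN1, chr12:6933839-6933868 (-): aCTTTTgcaggatctgTTTTCaatgaaacc

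The locus with most reads over the replicates lay opposite PPM1H, a protein phosphatase gene on the minus strand of chromosome 12. It held 137, 141 and 34 reads in replicates 1, 2 and 3, so replicate 3 was low. Further loci opposite PPM1H lay beside it and held 26, 40 and 11 reads and 18, 20 and 10 reads, with replicate 3 again lowest. The leading locus lay in a tandem repeat of a 37 nt unit that spanned 242 nt, or 6.54 units. Over the locus with some sequence on both sides, 72.2% of bases equalled the base 37 nt further on. The first and sixth lines above come from this repeat. At the other loci, apart from the overlapping PPM1H locus at 66.5%, the best of the periods tried matched 31.9% to 41.6% of bases. The central 20 nt of the 3 PPM1H loci had 2, 10 and 31 exact copies in hg38, and ZNF124 had 3, while the other 5 loci were unique. Only these 20 nt were compared, not whole reads. How reads with more than 1 match were placed is not given, so the position of the PPM1H reads is uncertain.

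The first PHYKPL locus held 35, 35 and 34 reads in replicates 1, 2 and 3, the most even of the 9. The other PHYKPL locus held 48, 14 and 51 reads, low in replicate 2. JAM3, a junctional adhesion molecule gene, had 18, 10 and 37 reads on its opposite strand, high in replicate 3. The loci opposite ZNF124 (29, 12 and 7 reads), RABL6 (5, 21 and 16 reads) and ATN1 (13, 8 and 16 reads) were smaller. No replicate was the highest at all 9 loci.

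Over genes in place of single sites, 316, 259 and 258 genes had at least 1 member opposite them in replicates 1, 2 and 3. These were 3.13% ± 0.36 (SD, n = 3) of the 8920, 8918 and 8745 genes with intron clusters. In all, 623 genes had a member in some replicate, of which 459 had it in 1, 118 in 2 and 46 in all 3. All 591 of these genes that matched GENCODE release 44 by symbol, chromosome and strand were protein-coding. The rule takes genes only from clusters labelled as intron, which bears on this. The coding share over all genes with intron clusters was not computed, so this is a description. Each member lay opposite a single gene. Of the genes with a member, 65.5% ± 4.60 (SD, n = 3) had exactly 1, and 25, 21 and 21 genes had at least 5 in replicates 1, 2 and 3. The 10 genes described next were those with the largest geometric mean share of member reads, among genes with a member in every replicate. They held 19.0% ± 2.74 of members and 28.8% ± 3.92 of member reads (SD, n = 3).

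FANCI, a Fanconi anaemia gene that acts in the repair of DNA crosslinks, led these genes. It lies on the plus strand of chromosome 15, from 89243945 to 89317261 in GENCODE, and had 17, 26 and 21 members on the minus strand with 218, 333 and 357 reads in replicates 1, 2 and 3. Its own introns had 36, 26 and 38 clusters on the plus strand. Of the 64 members, 30 lay inside POLG, the gene of the mitochondrial DNA polymerase, which runs on the minus strand from 89305198 to 89334861. POLG itself had 19, 16 and 15 annotated clusters and none in its 3′UTR. The other 34 members lay 1.43 to 53.3 kb past the end of POLG.

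EDC3, an mRNA decapping factor gene on the minus strand of chromosome 15, had 16, 9 and 19 members on the plus strand. Their reads were 248, 86 and 224, low in replicate 2. Here 36 of 44 members lay inside CLK3, a kinase of splicing factors on the plus strand from 74598500 to 74645414, which had 32, 38 and 32 annotated clusters of its own. RASA1, which turns off RAS, had 10, 7 and 5 members opposite it with 107, 49 and 53 reads. Of those 22 members, 18 lay inside the GENCODE gene CCNH, a cyclin of the CDK-activating kinase, which had only 2, 1 and 1 annotated clusters. FANCI, EDC3 and RASA1 are thus genes with a partner on the other strand in GENCODE that the deposited annotation did not assign to these clusters.

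PHYKPL, an enzyme gene of hydroxylysine breakdown on the minus strand of chromosome 5, had 8, 12 and 15 members with 177, 286 and 303 reads in replicates 1, 2 and 3. Its introns held 12, 15 and 18 clusters. The nearest coding gene behind the members on their own strand was HNRNPAB, an hnRNP gene that ends 4.34 to 17.8 kb before them and had 11, 7 and 8 clusters. ATN1, which encodes the corepressor atrophin 1, had 9, 11 and 9 members with 132, 170 and 356 reads, high in replicate 3. Its introns held 9, 7 and 9 clusters, no more than the members opposite. A single ATN1 member at chr12:6935178-6935485 held 239 reads in replicate 3, of which 98 were distinct and 76.2% had a T-to-C change, the most of any member. The gene before the ATN1 members is PHB2, a prohibitin, 27.3 to 39.9 kb away with 1, 3 and 4 clusters.

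PPM1H had 6, 8 and 5 members with 201, 263 and 81 reads in replicates 1, 2 and 3. Most of these reads lay at the repeat shown above, but most members of replicate 3 did not. The gene before the members on their strand, MON2, which acts in endosome to Golgi transport, ended 159 to 200.2 kb away. RABL6, a RAB-like GTPase gene, had 9, 20 and 14 members with 131, 212 and 145 reads. For 42 of these 43 members the gene before them was EDF1, a transcriptional coactivator gene, which ended 13.4 to 44.4 kb away and had 0, 1 and 0 clusters. Of the members, 23 lay past the GENCODE end of RABL6, since the deposited intron clusters named RABL6 reach further.

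PRSS12, which encodes the protease neurotrypsin, had 9, 6 and 14 members with 112, 48 and 146 reads and 9, 8 and 13 intron clusters in replicates 1, 2 and 3. The zinc finger gene ZNF124 had 12, 4 and 6 members with 160, 58 and 60 reads, high in replicate 1. SLC38A10, an amino acid transporter gene, had 5, 2 and 5 members with 77, 41 and 72 reads. For PRSS12 the members thus came close in number to the gene's own intron clusters, while SLC38A10 had 27, 34 and 35. In 2 genes, ATN1 and TCF7, members were at least as many as intron clusters in every replicate. TCF7, a transcription factor of Wnt signalling, had 5, 3 and 7 members against 2, 2 and 2 intron clusters. In 47 genes this held in at least 1 replicate.

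**Figure D1:**
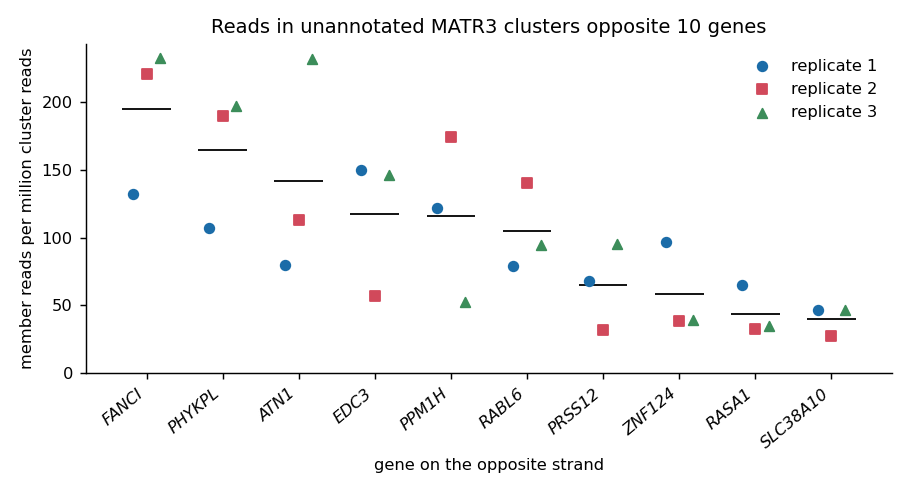
Reads in members opposite each of the 10 genes, per 1000000 cluster reads of the replicate, with 1 point per replicate and a line at the mean. FANCI had the highest mean at 195 ± 55.0 and SLC38A10 the lowest at 40.3 ± 11.3 (SD, n = 3), and the points of neighbouring genes overlap.

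Scaled to reads per 1000000 cluster reads, the means were 195 ± 55.0 for FANCI, 165 ± 50.1 for PHYKPL and 142 ± 80.1 for ATN1 (SD, n = 3). EDC3 followed at 118 ± 52.7, PPM1H at 116 ± 61.0 and RABL6 at 105 ± 31.9. Neighbours in this order did not differ beyond their spread. PRSS12 (65.0 ± 31.8), ZNF124 (58.2 ± 33.6), RASA1 (44.0 ± 18.1) and SLC38A10 (40.3 ± 11.3) were lower. The genes were chosen for these reads, so the order is a description.

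**Figure D2:**
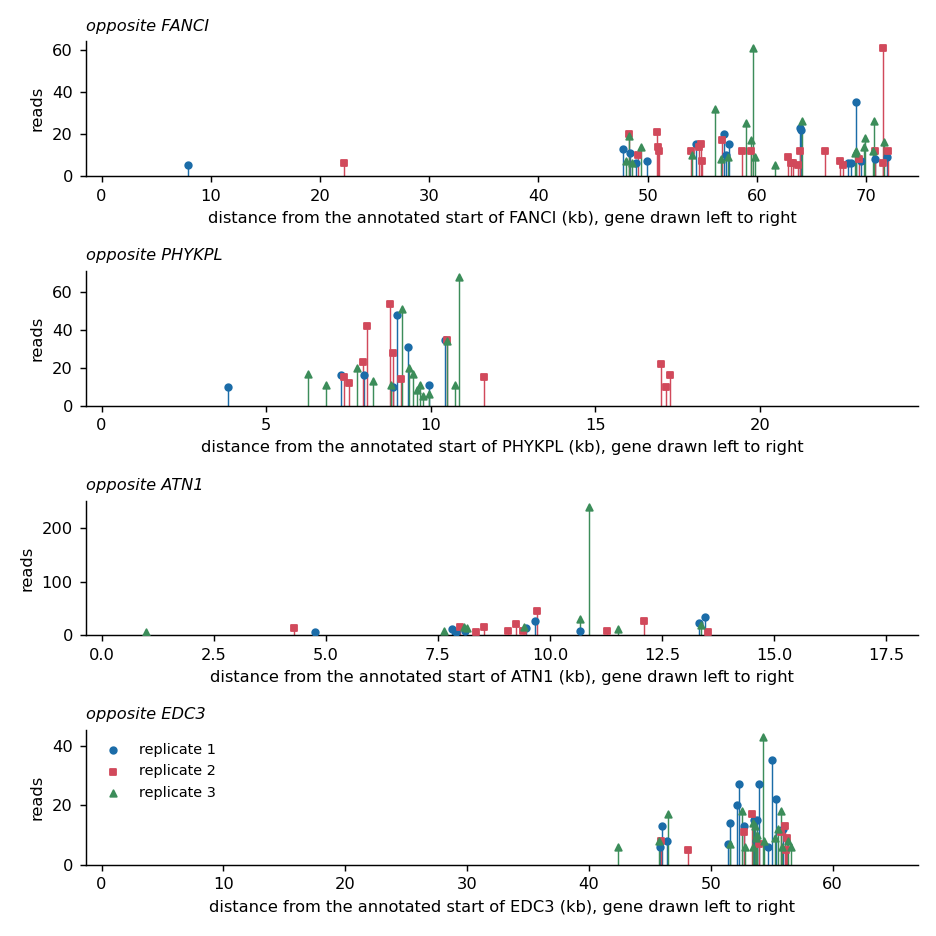
Members opposite FANCI, PHYKPL, ATN1 and EDC3, with distance in kb from the annotated start of the gene (gene drawn left to right) against reads per member. Circles, squares and triangles are replicates 1, 2 and 3. Members gather in the later part of FANCI and EDC3 and between the ends of PHYKPL and ATN1, and the ATN1 member with 239 reads stands alone.

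For the named genes without a locus in every replicate, the sequence around the peak of the member with most reads outside annotated UTRs is shown, with its reads, to give an example of what was bound opposite each. These examples were chosen after their values were seen, and capitals again mark runs of at least 5 C or T.
FANCI, chr15:89315530-89315559 (-), 61 reads in replicate 2: gtggtccaaagtttacaaCCCTTCTgagag
EDC3, chr15:74649800-74649829 (+), 17 reads: agcaaCTCTTgCCTTTgCTTTCTCTgggct
PRSS12, chr4:118300913-118300942 (+), 34 reads: ttgttgcgcatgtgttttaaaattattaga
RASA1, chr5:87366469-87366498 (-), 29 reads: aaccagaataggaatcattcacaaTCTTCa
SLC38A10, chr17:81252528-81252557 (+), 36 reads: tctggccctggaCCCCTggagCCTTTCCgc

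Some genes outside the rule for named genes held members with many reads, and 3 of them were looked at after their values were seen. SEMA3E, a semaphorin gene on the minus strand of chromosome 7, had 9, 8 and 0 members with 177, 197 and 0 reads in replicates 1, 2 and 3. In the stretch of those members, chr7:83460418-83524776, replicate 3 nevertheless had 8 unannotated clusters with 151 reads on the same strand. They were no members because the intron clusters of SEMA3E in replicate 3 ended at 83459476, just before the stretch. NUMA1, a mitotic spindle gene, had 12, 3 and 0 members, while its stretch held 12, 8 and 11 unannotated clusters with 180, 126 and 155 reads. At these 2 genes membership changed between replicates while unannotated clusters were present in all of them. LCLAT1, an acyltransferase gene of cardiolipin, differed: its stretch held 0, 2 and 4 unannotated clusters with 0, 23 and 97 reads.

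Most members were seen in a single replicate. A same-strand cluster of another replicate overlapped 7.87%, 7.74% and 10.4% of members by at least 1 nt in replicates 1, 2 and 3, or 8.66% ± 1.48 (SD, n = 3). After moving the members by 1000 nt up and down the chromosome the share was 3.47% ± 0.47, and the excess was 5.19 ± 1.04 percentage points. All 3 replicates had this direction, with an exact two-sided sign-flip p of 0.25, the smallest that 3 replicates allow, so no test of this kind could reach 0.05. Intron clusters of the same genes were found in another replicate at 11.3% ± 0.28, with an excess of 5.60 ± 0.33. The excess of members minus that of introns was -0.408 ± 0.71 percentage points, which was within the spread between replicates and had an exact p of 0.5. When the overlap had to cover 50% of each cluster, the excess of members fell to 2.94 ± 0.29 and the difference from introns was -0.645 ± 0.10. With a move of 5000 nt the difference was -1.35 ± 0.80, both negative in all 3 replicates (exact p = 0.25), while it was 1.64 ± 4.83 among clusters with at least 10 reads (exact p = 0.75). Over the 6 ordered pairs of replicates, 291 members met a cluster of the other replicate, which was a member itself in 203 cases, another unannotated cluster in 86 and an annotated cluster in 2.

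With the main settings, 28 such sign-flip tests were run on members, of which 23 gave 0.25, and the smallest Benjamini-Hochberg adjusted p was 0.304. The tests quoted for alternative settings are not among these 28 and were not adjusted. A p that misses the threshold does not show that values were equal, so each difference below is given with its SD and its direction in the 3 replicates.

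Members were sparse beside the intron clusters across from them. The ranges between first and last intron clusters covered 436, 421 and 411 Mb in replicates 1, 2 and 3. Members had 1.33 ± 0.084 clusters per Mb on the opposite strand, and the intron clusters that define the ranges 223 ± 3.88 per Mb (SD, n = 3). Intron clusters were thus 155, 174 and 173 times as many per Mb as members. Other clusters on the strand of the members were not counted, so this does not compare the strands as a whole. Since the rule used the intron clusters, this is a description with no test. Genes with a member had a longer range, with a median of 48.5 kb ± 9.28 against 16.4 kb ± 0.38 for genes without, and more intron clusters, with a median of 10 against 5.33 ± 0.58. A longer range gives more room for a member, so this also follows in part from the rule.

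Members lay late along the bound genes. Each gene was split into 5 bins of equal length from its annotated start to its end. Members could be placed when they lay within a gene matched in GENCODE, as 587, 522 and 459 did in replicates 1, 2 and 3. The bins held 6.68% ± 0.83, 14.7% ± 0.90, 19.8% ± 4.05, 29.8% ± 3.23 and 29.1% ± 1.61 of the placed members (SD, n = 3). The intron clusters of the same genes ran the other way, from 28.7% ± 1.79 in the first bin to 15.7% ± 1.85 in the last. The first bin differed by -22.0 ± 1.24 percentage points (members minus intron clusters) and the last by 13.4 ± 3.28 points, in all 3 replicates (exact sign-flip p = 0.25 each). Only 2, 5 and 6 members lay within 1000 nt of the annotated start of the opposite gene. Without the 10 named genes the first bin held 8.04% ± 0.93 and the last 28.5% ± 2.37 of members. The rule keeps members between intron clusters. Measured along that range, the first bin held 8.02% ± 1.20 and the last 44.0% ± 3.11 of members.

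**Figure D3:**
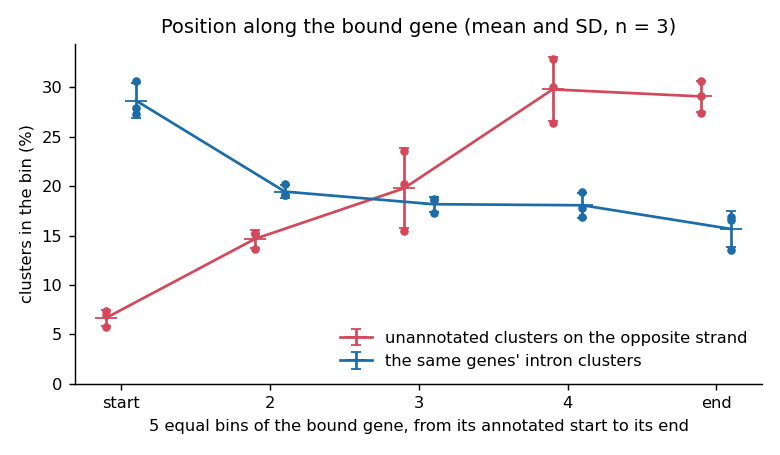
Share of clusters in each of 5 equal bins of the bound gene, from its annotated start to its end, for members and for the intron clusters of the same genes. Only clusters within a gene matched in GENCODE are placed. Points are the 3 replicates, and lines and bars give the mean and SD. Members rise from 6.68% to 29.1% while intron clusters fall from 28.7% to 15.7%.

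Members opposite an exon were 20.1% ± 0.23 of all, against 18.1% ± 0.97 after moving by 1000 nt (SD, n = 3). The opposite gene was matched in GENCODE for 593, 536 and 470 members in replicates 1, 2 and 3. Members of unmatched genes counted as not opposite an exon in both shares. Members were higher by 1.95 ± 1.14 percentage points, in all 3 replicates, with an exact p of 0.25. An opposite-strand cluster of the same replicate overlapped 15, 21 and 15 members, or 3.04% ± 0.72, against 2.40% ± 0.21 for moved members. Bound sites on both strands of the same place were thus rare, and the difference of 0.640 ± 0.51 points had the same sign in all 3 replicates (exact p = 0.25).

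The surroundings of members on their own strand were read from GENCODE release 44, with the other unannotated clusters that had no 3′UTR cluster near as comparison (14726, 13595 and 12425 clusters). This comparison class was not free of clusters opposite genes. In it, 27.4% ± 0.75 lay opposite a protein-coding GENCODE gene, and 11.6% ± 0.59 opposite one bound in the same replicate (SD, n = 3). Of members, 9.49% ± 0.43 lay inside a GENCODE gene of their own strand, against 19.0% ± 0.48 of the others (SD, n = 3). A place opposite a bound gene has by the rule a gene on the other strand, which bears on this difference. Without the 10 named genes the share of members was 5.55% ± 0.62. In numbers, 62, 50 and 49 members lay inside such a gene in replicates 1, 2 and 3, of which 49, 40 and 37 were in protein-coding and 13, 9 and 12 in lncRNA genes. Summed over replicates, CLK3 held 36, POLG 30 and CCNH 18 of them. The antisense lncRNA genes with most were ZFHX3-AS1 with 5 and KDM4A-AS1 with 4.

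A further 20.7% ± 1.03 of members lay within 10 kb past the 3′ end of a protein-coding gene of their strand, against 30.2% ± 0.71 of the other unannotated clusters. Between 10 and 50 kb past such an end lay 43.4% ± 4.57 of members against 31.1% ± 0.45, and beyond 50 kb 26.4% ± 4.02 against 19.7% ± 0.59. The differences, in this order, were -9.53 ± 0.74, 12.3 ± 5.01 and 6.73 ± 3.67 percentage points, each with the same sign in all 3 replicates and an exact p of 0.25. Members were thus fewer close behind genes and more frequent 10 to 50 kb behind them. The rule removes clusters within 10000 nt of a 3′UTR cluster from both classes. Members just outside that distance, at 10000 to 15000 nt, numbered 45, 27 and 17 with median reads of 13, 7 and 10. Those just inside, at 5000 to 10000 nt and left out, numbered 24, 22 and 22 with medians of 8, 7 and 7.5.

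For members within 50 kb of such an end and outside own-strand genes, the gene they followed was itself bound in the same replicate in 77.5%, 82.9% and 76.8% of cases, or 79.0% ± 3.32 (SD, n = 3). Of all protein-coding genes, 45.9% ± 0.32 had a cluster. Genes were matched by symbol for both shares. Some deposited symbols differ from GENCODE, as MARS does from MARS1, and such genes counted as not bound. The share was not computed for the other unannotated clusters, so it cannot be called particular to members. The median distance from the end of the gene to the member was 14022, 13697 and 13384 nt. HNRNPAB before PHYKPL is an example with clusters in every replicate. NDUFAF8 before SLC38A10, a gene of the respiratory chain's assembly, had 0 clusters under this symbol in each, and other symbols were not searched.

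**Figure D4:**
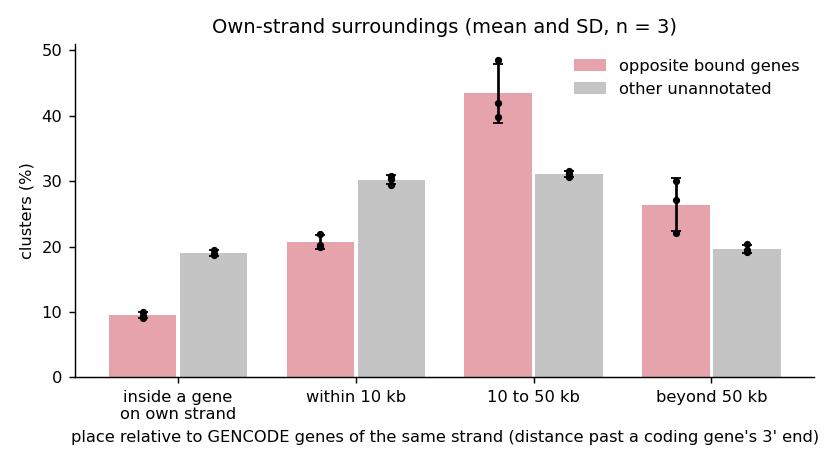
Own-strand surroundings of members and of other unannotated clusters by GENCODE release 44, as percent of clusters. Bars give the mean, whiskers the SD and points the 3 replicates. Members are below the others inside genes (9.49% against 19.0%) and within 10 kb of a 3′ end, and above them at 10 to 50 kb. Of the other unannotated clusters, 11.6% ± 0.59 also lay opposite a bound gene.

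Members were scattered more than other clusters. With runs defined as at least 3 clusters of a class with gaps of at most 5000 nt, 42.6% ± 2.06 of members, 57.4% ± 2.78 of the other unannotated clusters and 75.8% ± 2.09 of intron clusters lay in runs (SD, n = 3). The differences were -14.8 ± 3.68 and -33.2 ± 2.89 percentage points, in all 3 replicates (exact p = 0.25 each). A class with fewer clusters forms fewer runs, and this was not adjusted for. The longest runs held 16, 25 and 21 members in replicates 1, 2 and 3, and 42.9% ± 3.76 of members stood alone.

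The share of reads with a T-to-C change was slightly higher in members than in the intron clusters across from them, but not under every read limit. In members it was 90.3%, 88.3% and 90.1% in replicates 1, 2 and 3, and 89.6% ± 1.10 against 87.6% ± 1.0 in intron clusters and 88.4% ± 1.01 in other unannotated clusters (SD, n = 3). The difference from intron clusters was 1.93 ± 0.42 percentage points, positive in all 3 replicates (exact p = 0.25). The share was higher in clusters with few reads, and members had fewer reads, as given below. With 4 to 5 reads it was 99.8%, 99.1% and 99.6% in members and 99.0%, 98.7% and 99.2% in intron clusters. At equal read counts the difference was 0.435 ± 0.32 points. It lay within its spread among clusters with at least 10 reads, at 0.584 ± 1.91 (exact p = 0.75), and with at least 3 distinct reads, at 0.166 ± 0.84 (exact p = 1). Without the 10 named genes it was 4.08 ± 0.15. Among clusters with at least 20 reads, members were lower, at 78.4%, 75.5% and 78.2% against 79.8%, 77.8% and 79.6%.

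Counted per T position, conversion was 12.7%, 12.8% and 13.2% in members, against 11.1% ± 0.43 in intron clusters and 11.9% ± 0.41 in other unannotated clusters (SD, n = 3). The difference from intron clusters was 1.87 ± 0.33 percentage points, and 1.56 ± 0.25 at equal read counts, positive in all 3 replicates (exact p = 0.25). It was 1.0 ± 0.25 among clusters with at least 10 reads and 0.741 ± 0.10 with at least 3 distinct reads. The difference from other unannotated clusters was 1.04 ± 0.20 points (exact p = 0.25). Members had fewer T to convert, as given next, which was not adjusted for.

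**Figure D5:**
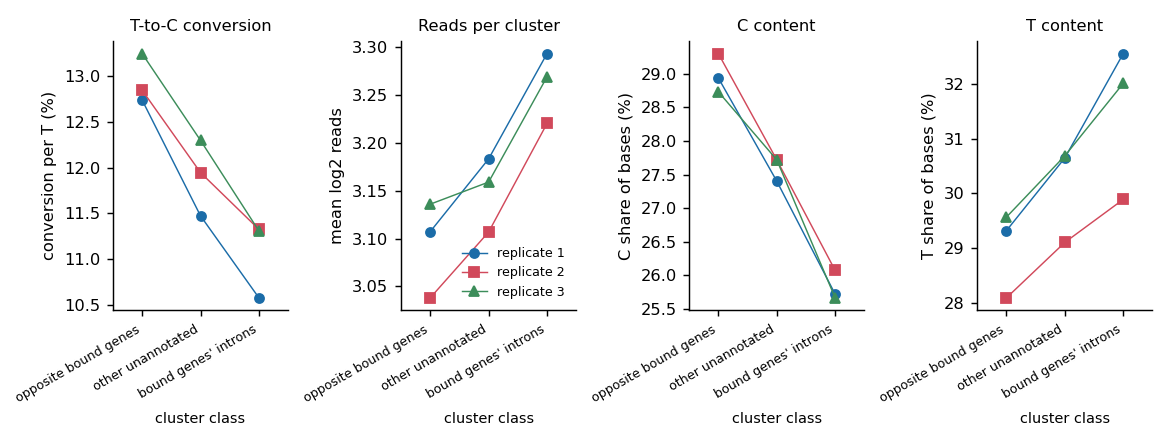
Conversion per T, mean log2 reads per cluster, and the C and T shares of bases in members, other unannotated clusters and the bound genes' introns. Points joined by a line are the 3 classes of a replicate, and the axes do not start at 0. In each replicate members had the highest conversion and C share and the fewest reads per cluster, with T lowest in members.

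Members were slightly smaller than the intron clusters across from them. The median of members was 8, 7 and 8 reads against 9 in intron clusters of each replicate, and the mean log2 of reads was 0.17 ± 0.03 lower (SD, n = 3). Median lengths were 37, 37 and 35 nt against 39, 40 and 36 nt, a mean log2 length lower by 0.11 ± 0.03. Both held in all 3 replicates (exact p = 0.25 each). With at least 3 distinct reads the differences were within their spread, at -0.03 ± 0.04 for reads and -0.02 ± 0.06 for length. Other unannotated clusters were close to members, with a median of 8 reads in each replicate and median lengths of 38, 38 and 35 nt. Their mean log2 of reads was 3.15 ± 0.04, against 3.09 ± 0.05 in members. Of members, 57.8%, 45.5% and 54.7% rested on at most 2 distinct reads, and reads carry no molecular identifiers, so read counts can include copies of the same molecule.

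In base composition, members were richer in C and poorer in T than intron clusters. C made up 29.0% ± 0.29 of member bases against 25.8% ± 0.22, a difference of 3.21, 3.22 and 3.06 percentage points in replicates 1, 2 and 3. T made up 29.0% ± 0.79 against 31.5% ± 1.40, a difference of -2.49 ± 0.72 points (SD, n = 3; exact p = 0.25 for each base). The other unannotated clusters lay between, with 27.6% ± 0.18 C. The sum of C and T was 58.0% ± 0.51 in members and 57.3% ± 1.20 in intron clusters, and the difference of 0.680 ± 0.72 points did not exceed its spread (exact p = 0.5). It turned to -1.0 ± 0.25 among clusters with at least 10 reads. A tract of at least 10 C or T was present in 19.7% ± 0.83 of members and 19.4% ± 1.66 of intron clusters, a difference of 0.301 ± 1.10 (exact p = 0.75). A cluster needs converted T positions to be listed, which bears on the base shares of every class.

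The letters ATCTT, the DNA form of a motif known for MATR3, were searched in the member sequences on the listed strand, with AAGAT, the same letters on the other strand, as comparison. A pair of matches can share the letters AT. ATCTT occurred in 49, 51 and 52 members, or 9.05% ± 1.08 (SD, n = 3), and AAGAT in 18, 15 and 13, or 2.71% ± 0.20. The log2 ratio of their shares was 1.42, 1.73 and 1.96, with a mean of 1.70 ± 0.27. The ratio was 1.62 ± 0.21 in intron clusters and 1.80 ± 0.24 in other unannotated clusters. The base shares alone, with more T and C than A and G, give a log2 ratio of 1.43, 1.26 and 1.46 in members, or 1.38 ± 0.11. In replicate 1 the measured ratio was no higher than that, while in replicates 2 and 3 it was higher. Base shares alone gave 1.43 ± 0.19 in intron clusters and 1.47 ± 0.15 in other unannotated clusters. The replicates thus differed, and whether the ratio in members goes beyond base composition was not tested.

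Stretches of equal length 200 nt to each side held ATCTT in 5.30% ± 0.23 of cases. The log2 ratio of clusters over these flanks was 0.77 ± 0.13 in members and 0.59 ± 0.07 in intron clusters, and the difference of 0.18 ± 0.17 had an exact p of 0.5. A match is a description of the letters and not a measured site. The 2 members with ATCTT and most reads in each replicate are shown to give the motif in its surroundings, 30 nt read 5′ to 3′ with only ATCTT in capitals.
NUMA1, chr11:72013870-72013899 (+), 38 reads in replicate 1: ggccttccactcATCTTcagccttgctgtg
PRSS12, chr4:118300965-118300994 (+), 34 reads in replicate 1: ccttatacataaATCTTtgtgggcagctta
FANCI, chr15:89315500-89315529 (-), 61 reads in replicate 2: tcctttgctctcATCTTtgcctgatcacct
SLC3A2, chr11:62880317-62880346 (-), 37 reads in replicate 2: ttttcaagactcATCTTgaattcatttcaa
JAM3, chr11:134131105-134131134 (-), 37 reads in replicate 3: agcctgggatgaATCTTagcATCTTgtcag
RASA1, chr5:87366458-87366487 (-), 29 reads in replicate 3: gaatcattcacaATCTTcaacttgtgcttc

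The JAM3 line holds the motif at 2 places, and this member belongs to the JAM3 locus found in every replicate. SLC3A2 encodes the heavy chain of an amino acid transporter, and its member lies opposite a gene with 18, 26 and 22 intron clusters.

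Exact copies elsewhere in the genome were counted for the central 20 nt of each cluster. More than 1 copy was present for 16.7%, 12.4% and 10.7% of members, against 11.4% ± 0.99 of intron clusters and 14.9% ± 1.30 of other unannotated clusters (SD, n = 3). The difference from intron clusters was 1.92 ± 2.08 percentage points (exact p = 0.25) and from the others -1.66 ± 1.82 (exact p = 0.5), both within their spread. More than 10 copies were found for 6.29% ± 1.45 of members, 3.81% ± 0.40 of intron clusters and 5.61% ± 0.69 of the others. Most members were therefore unique at this length, unlike the PPM1H loci.

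A list of 20 genes with a known natural antisense RNA was looked up among the bound genes. Of these, 14 had intron clusters in some replicate and 1 had a member, FOXP1, a forkhead transcription factor gene, with 1 member in replicate 1. Over all genes with intron clusters, 623 of 10393 had a member in some replicate, or 5.99%. The imprinted genes UBE3A, with 66, 49 and 62 intron clusters, IGF2R, with 26 in each replicate, and GNAS, with 15, 12 and 11, had 0 members. An antisense RNA that the deposited annotation names would not be listed as NoAnnotation, and so could not give a member. A count of 0 here covers only clusters that reached the limits of the deposited tables.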

How the data were processed

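The authors deposited 1 table of read clusters per replicate, called in each replicate separately. Per the file headers, reads, distinct reads, conversion locations and events are counts that were not normalised, the deposited T-to-C value is a fraction, the deposited specificity of conversion is a log10 value, and the deposited mode score is a score that was not used. The build is hg38, per the submitters' processing notes, and the sequences of all 623, 549 and 521 members equalled hg38. The aligner, cluster caller and annotation release are not given in the sources used here. Each deposited cluster has at least 4 reads, and reads in clusters are not the library depth, which is unknown. RNA-seq named in the design was not analysed here.

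Classes of clusters were computed with Python 3.11.15, pandas 2.3.3, NumPy 2.4.6, SciPy 1.17.1 and pysam 0.24.0, and set against GENCODE release 44. Shares of reads, conversion and bases were summed over the clusters of a replicate, and log2 ratios of motif shares used a pseudocount of 0.5 clusters. Differences within replicates were tested with an exact two-sided sign-flip permutation test over 3 replicates, and the scripts were tested on simulated data. P-values measure only the spread between these replicates. The named genes are the 10 with the largest geometric mean share of member reads among genes with a member in all 3 replicates, and the loci those with a member in all 3 replicates. Members, lists and tests were chosen with earlier results of these data known. The alternatives were stricter read limits, a longer 3′UTR distance, genes with more intron clusters, other overlaps, distances and summaries, and leaving out each replicate. A planned comparison of repeat-masked bases was not run, because the genome used here is in upper case only, and copies of 20 nt were counted instead.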

Additional observations from a re-analysis of the deposited data

How the results depend on the processing

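Of 133 recomputed values of 14 results, 84 lay within 1.5 times of the value reported, 41 kept only their sign, 1 was 0 and 7 changed sign. No paired analysis was possible because there is only 1 group, so no replicate number is shared between groups; classes were compared within each replicate. Restricted to clusters of 10 or more reads, members were 1.66% of unannotated clusters, 13.6% lay in an own-strand gene, 5.46% overlapped an opposite-strand cluster and 12 genes had members in all replicates. There the excess found again relative to introns turned to 1.64 points, the pyrimidine difference to -1.0 and the log2 motif difference over flanks to -0.066. With at least 3 distinct reads, the same shares were 1.93%, 14.7% and 4.19%, with 15 genes. There the T-to-C difference from other unannotated clusters turned to -0.132 points, the excess to 1.75 and the pyrimidine difference to -0.289. A 3′UTR distance of 20000 nt gave a member share of 3.04%. Genes with at least 5 intron clusters gave a member share of 2.72% and an own-strand share of 11.2%. The median T-to-C difference was 0, since both medians were at the ceiling. Leaving out each replicate gave 77 to 91 genes with members in both remaining replicates, and an excess difference of -1.61 to 0.50 points, the latter without replicate 1. Alternatives chosen after seeing the data gave member shares of 2.71% without the 10 named genes and 3.02% without members in own-strand GENCODE genes. The causes were not tested. Reads per member, with medians of 8, 7 and 8, limit all values for single sites.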
